A study of Homo sapiens with 8 samples.

Results

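The genes described here are 10 markers of the mesenchymal state and transcription factors of the epithelial-mesenchymal transition (EMT): CDH2, CDH11, VIM, SNAI1, SNAI2, ZEB1, ZEB2, TWIST1, TWIST2 and AXL. They were chosen by gene symbol and not by a threshold on their values, but with earlier results of these data known. Of the 10, 8 had a row among the 19583 rows of the deposited table, and TWIST1 and TWIST2 were not analysed here. RNA came from MDA-MB-231 cells, an established human breast cancer line of the triple-negative class that is known for its mesenchymal shape. The 4 groups were cells labelled as carrying a short hairpin against CHD4 (shCHD4) at 1% O2, shCHD4 cells at 20% O2, cells with a scrambled hairpin (shSC) at 1% O2, and shSC cells at 20% O2. Each group held 2 libraries and each O2 level was kept for 24 hours, in medium with serum. All 4 groups carried a hairpin, and the labels do not say whether cells of a label were 1 clone, or whether libraries of 1 group were grown apart. The p-values therefore cover only the variation among the sequenced libraries, part of which may be technical. The study's title names the regulation of hypoxia-inducible factors (HIFs) by CHD4, the ATPase of a nucleosome remodelling and deacetylase complex.

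In EMT, epithelial cells lose their junctions and take on a motile, mesenchymal form. Transcription factors of the SNAI, ZEB and TWIST families drive it: SNAI and ZEB proteins are zinc-finger factors that bind E-box sequences and repress epithelial genes such as E-cadherin, and TWIST proteins are basic helix-loop-helix (bHLH) factors. Vimentin (VIM) is the intermediate filament of mesenchymal cells, N-cadherin (CDH2) and cadherin-11 (CDH11) are their adhesion molecules, and AXL is a receptor tyrosine kinase linked to the mesenchymal state. Low oxygen has been described as an inducer of EMT factors in several carcinoma cells.

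To set these genes beside the O2 comparison, the 250 bases before the annotated start were read from RefSeq promoter windows (build GRCh38.p14, which is not the build of the deposited table). AXL, CDH2, VIM, ZEB1 and ZEB2 matched a window, and CDH11, SNAI1 and SNAI2 did not. On both strands, the core sequence of HIF sites, ACGTG or GCGTG, was in 43.2% of all 35116 windows of this length, and the E-box CACCTG, the form that SNAI and ZEB proteins bind, was in 17.5%. The sequences shown are those of VIM, the member with the largest rise at 1% O2 among the 6 that passed a filter on low values, of ZEB2, a factor that was lower under the shCHD4 label, and of the upstream start of AXL. They are written 5′ to 3′ on the strand of the gene, and capitals mark either motif or its reverse complement.
VIM, chr10:17227991-17228240, plus strand: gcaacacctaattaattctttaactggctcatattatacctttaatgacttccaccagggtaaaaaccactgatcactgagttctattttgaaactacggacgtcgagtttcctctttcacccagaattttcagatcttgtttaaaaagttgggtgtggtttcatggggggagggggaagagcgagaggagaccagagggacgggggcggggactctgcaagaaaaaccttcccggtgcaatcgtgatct
ZEB2, chr2:144520120-144520369, minus strand: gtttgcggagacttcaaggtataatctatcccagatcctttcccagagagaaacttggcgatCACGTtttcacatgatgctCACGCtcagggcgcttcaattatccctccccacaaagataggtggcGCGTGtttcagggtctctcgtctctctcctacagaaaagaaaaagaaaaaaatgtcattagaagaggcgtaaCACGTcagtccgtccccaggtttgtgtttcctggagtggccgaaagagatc
AXL, chr19:41218973-41219222, plus strand: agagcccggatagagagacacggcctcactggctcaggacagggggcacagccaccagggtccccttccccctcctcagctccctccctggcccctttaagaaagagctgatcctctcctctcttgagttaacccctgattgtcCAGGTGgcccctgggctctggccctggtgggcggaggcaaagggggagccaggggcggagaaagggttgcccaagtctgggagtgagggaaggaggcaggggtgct
The VIM window held neither motif. The ZEB2 window held 4 HIF cores and no E-box, and the AXL window held 1 E-box, 106 bases before the start. A second AXL start had 4 HIF cores, the 7 ZEB1 starts had 6 HIF cores and 3 E-boxes in all, and the 2 CDH2 starts had 1 HIF core. These matches describe letters in the windows and do not show binding.

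The deposited values are called normalised read counts here: each is a whole number of reads divided by 1 factor for its library, and not by gene length. Libraries held 24947627 to 31903585 reads. The test covered the 12645 genes that averaged 1 or more across libraries. Of the 8 members with a row, 6 passed this filter and 2, CDH2 and SNAI1, did not. The hairpin's target went against the label, since CHD4 RNA was no lower under shCHD4: it averaged 293.0 ± 8.64 under shCHD4 and 278.9 ± 1.08 under shSC at 1% O2, and 299.0 ± 7.9 under shCHD4 and 298.6 ± 0.47 under shSC at 20% O2 (SD, n = 2). Differences between labels are therefore given as differences between libraries with these labels. Genes that define the line were present: CD44, EGFR, CAV1 and VIM summed to 5559 to 8815 per library, most of it VIM. CD44 was lower under shCHD4 (log2 difference -0.80 at 1% and -0.79 at 20% O2), as was EGFR (-0.82 and -0.57), and CAV1 was higher (1.08 and 0.89). Among low markers of the line, CDH1 (E-cadherin) had 2 to 8 reads per library, ESR1 1 to 4 and PGR 0 to 3. ERBB2, also listed as a low marker of the line, was detected, with 980 to 1574 reads per library. It was higher under shCHD4, by 0.54 at 1% and 0.40 at 20% O2 on the log2 scale. NDRG1, a commonly used low-oxygen gene, averaged 635.8 at 1% and 66.9 at 20% O2 under shCHD4, and 1470 at 1% and 97.7 at 20% O2 under shSC.

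Fibroblast, endothelial and leukocyte markers were low, and so were most luminal markers apart from the keratins KRT8 and KRT18. Part of these markers differed between labels. The 9 fibroblast markers summed to 37.2 to 37.8 in shCHD4 at 1% O2, 33.3 to 36.1 in shCHD4 at 20% O2, 24.2 to 25.5 in shSC at 1% O2 and 22.2 to 24.2 in shSC at 20% O2, most of it COL1A1, while COL1A2 had 0 to 3 reads and DCN 0 to 1 reads per library. The 4 endothelial markers summed to between 2.1 and 3.22, and the 3 leukocyte markers in the table to between 1.31 and 2.48. The 8 luminal markers, mainly KRT8 and KRT18, summed to 433.4 to 445.3 in shCHD4 at 1% O2, 492.9 to 512.3 in shCHD4 at 20% O2, 308.0 to 344.2 in shSC at 1% O2 and 360.3 to 391.2 in shSC at 20% O2. Of these 8, only 3 passed the filter: KRT8, KRT18 and GATA3, which averaged 11.1. FOXA1 had 2 to 13 reads per library. The part of these markers in the label differences was not tested.

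The members differed in level by orders of magnitude. Divided by the exon length of the gene in GENCODE (release 29, another build), the mean normalised count over the 8 libraries was 2867 per kilobase for VIM and 292.2 for AXL. ZEB1 had 21.4, SNAI2 17.7, CDH11 10.9 and ZEB2 2.27 per kilobase. SNAI1 was at 0.314 and CDH2 at 0.0854. CDH11 lay below SNAI2 and above ZEB2 in each group, and its level moved with the label. In shCHD4 at 1% and 20% O2 it had 4.41 and 3.96 per kilobase, below the 14.3 and 13.2 of SNAI2, and in shSC at 1% and 20% O2 it had 16.0 and 19.2, against 20.8 and 22.2 for SNAI2. ZEB1 and SNAI2 lay close to each other in shSC at 20% O2, with 23.3 and 22.2 per kilobase, and their order there rests on the annotated lengths. ZEB1 was thus the more abundant ZEB gene and SNAI2 the more abundant SNAI gene in each group.

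**Figure D1:**
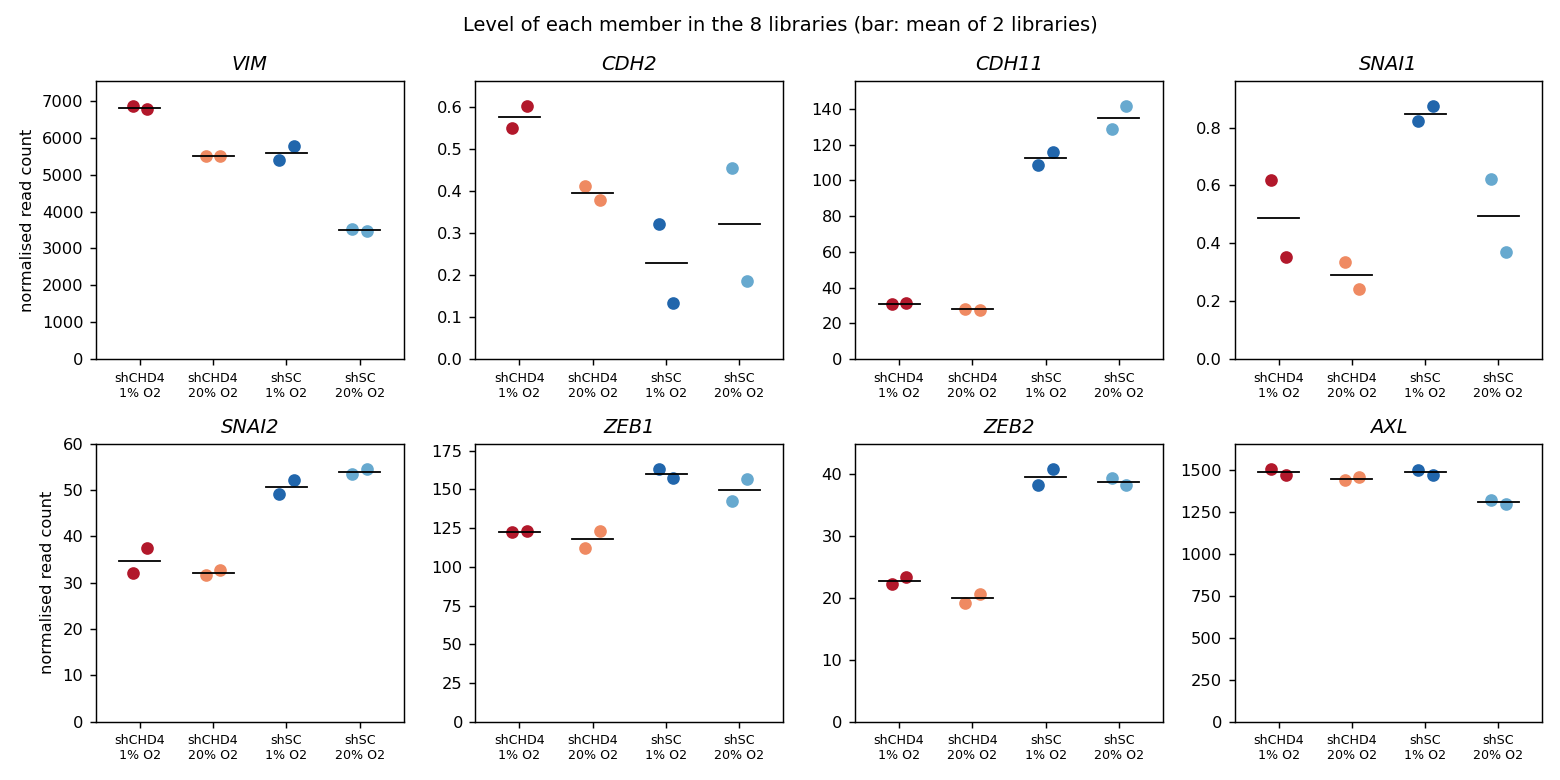
Normalised read count (linear axes from 0) of the 8 members in each library, by label and O2 level. Points are libraries and bars are the means of 2 libraries. VIM is lowest in shSC at 20% O2, CDH11 is between 27.7 and 31.4 in shCHD4 libraries and between 108.7 and 141.5 in shSC libraries, and CDH2 and SNAI1 are below 1 in every library.

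Vimentin RNA rose at 1% O2 under both labels and was higher under the shCHD4 label at both O2 levels. Its normalised read counts were 6856 and 6782 in shCHD4 at 1% O2, 5516 and 5501 in shCHD4 at 20% O2, 5410 and 5787 in shSC at 1% O2, and 3523 and 3471 in shSC at 20% O2. The libraries of shSC at 20% O2 were lowest, those of shCHD4 at 1% O2 were highest, and no compared pair of groups overlapped. VIM was the gene with the fourth-highest value in shSC libraries at 20% O2, the third-highest in shCHD4 libraries at 20% O2 and the second-highest in all 4 libraries at 1% O2, where it took 0.503% to 0.693% of all reads. Low O2 left it 1.24-fold higher under shCHD4 (log2 difference 0.31, SE 0.047, adjusted p = 0.000128) and 1.6-fold higher under shSC (log2 difference 0.68, SE 0.047, adjusted p = 3.51e-09). Under shSC, 2.93% of the tested genes had a larger absolute log2 difference between the O2 levels. Under shCHD4 the share was 10.6%. Between labels, shCHD4 was 1.22-fold higher at 1% O2 (adjusted p = 2.02e-05) and 1.58-fold higher at 20% O2 (adjusted p = 3.35e-10). The O2 effect was smaller under shCHD4 than under shSC by 0.37 on the log2 scale (interaction -0.37, 95% interval -0.51 to -0.23, adjusted p = 0.00309). Quantile normalization ended the call between labels at 1% O2 (adjusted p = 1), since VIM has the same rank in those 4 libraries and that method sets values by rank. It also brought the differences to 0.45 for O2 under shSC and 0.19 between labels at 20% O2, and the interaction to -0.19 (adjusted p = 0.0237). With every gene kept, low ones included, the interaction did not pass (adjusted p = 0.156), nor did it when limma's variance trend was left out (adjusted p = 0.0625).

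Cadherin-11 RNA was much lower under the shCHD4 label. The libraries had 30.6 and 31.4 in shCHD4 at 1% O2, 28.0 and 27.7 in shCHD4 at 20% O2, 108.7 and 115.9 in shSC at 1% O2, and 128.9 and 141.5 in shSC at 20% O2. All 4 shCHD4 libraries were below all 4 shSC libraries. The shCHD4 label was 3.58-fold lower at 1% O2 (log2 difference -1.84, SE 0.057, adjusted p = 1.71e-15) and 4.78-fold lower at 20% O2 (log2 difference -2.26, SE 0.057, adjusted p = 8.59e-17). At 20% O2, 2.43% of the tested genes differed more between labels. With O2 at 1% against 20%, CDH11 differed by 0.15 on the log2 scale under shCHD4 (adjusted p = 0.0625) and fell under shSC, where it was 1.2-fold lower (log2 difference -0.27, adjusted p = 0.0015). The O2 differences of the labels had opposite signs, and their difference passed the test (interaction 0.42, 95% interval 0.25 to 0.59, adjusted p = 0.00555). It did not pass with every gene kept (adjusted p = 0.0531), or with the variance trend left out (adjusted p = 0.0756). Under shCHD4 the O2 difference passed after centring on neighbouring genes (0.22, adjusted p = 0.0161), without shSC 20% O2 replicate 1 or 2, and with the crossed pairing of replicates.

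N-cadherin, the best-known mesenchymal cadherin, was close to absent from the RNA. CDH2 had 16 and 17 reads in shCHD4 at 1% O2, 11 and 11 in shCHD4 at 20% O2, 9 and 4 in shSC at 1% O2, and 11 and 5 in shSC at 20% O2. At 1% O2 the shCHD4 libraries were above the shSC libraries, and at 20% O2 the labels shared a value. With no filter on low values, CDH2 was higher under shCHD4 at 1% O2, both with limma (log2 difference 0.57, adjusted p = 0.0168) and with edgeR on the recovered reads (1.33, adjusted p = 0.0163), on 33 reads under shCHD4 and 13 under shSC. The other CDH2 comparisons did not pass by either test.

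Among other cadherins, 21 of 23 had a row and 6, CDH11 included, passed the filter. CDH4 (R-cadherin) had a log2 difference between labels of -1.16 at 1% and -1.03 at 20% O2, and rose at 1% O2 under shSC by 0.23. CDH3, CDH12 and CDH18 passed the filter only through the label under which they were high, so no count over the cadherins is given. CDH18 averaged 0.0172 in shCHD4 and 1.87 in shSC at 1% O2, and had 0 reads in shCHD4 libraries at 20% O2 against a mean of 2.21 in shSC. CDH12 averaged 2.46 in shCHD4 and 0.0525 in shSC at 1% O2. CDH3 (P-cadherin) averaged 0.347 in shCHD4 and 2.95 in shSC at 1% O2. CDH13, named after its values were seen, missed the filter with a mean of 0.969, and averaged 2.32 in shCHD4 and 0.157 in shSC at 1% O2. The catenins tie cadherins to actin. Of 5 tested, 1 was higher and 2 lower under shCHD4 at 1% O2, against 38.2% and 39.2% of all tested genes. At 20% O2, 1 was higher and 1 lower, against 37% and 38.6%. JUP (plakoglobin) had a log2 difference of -0.76 at 1% and -1.37 at 20% O2, while CTNNB1 (beta-catenin) differed by -0.088 at 20% O2 (adjusted p = 0.0534) and CTNND1 by 0.034 at 1% O2 (adjusted p = 0.454).

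Of the SNAI genes, SNAI2 (SLUG) was expressed and SNAI1 (SNAIL) was near the limit of detection. SNAI2 had 32.1 and 37.4 in shCHD4 at 1% O2, 31.6 and 32.7 in shCHD4 at 20% O2, 49.1 and 52.1 in shSC at 1% O2, and 53.4 and 54.6 in shSC at 20% O2. Every shCHD4 library was below every shSC library, and the O2 levels overlapped under shCHD4. SNAI2 was 1.45-fold lower under shCHD4 at 1% O2 (log2 difference -0.54, SE 0.068, adjusted p = 8.54e-07) and 1.67-fold lower at 20% O2 (-0.74, SE 0.068, adjusted p = 1.33e-08). Between 1% and 20% O2 it differed by 0.11 under shCHD4 (95% interval -0.036 to 0.25, adjusted p = 0.271) and by -0.092 under shSC (95% interval -0.23 to 0.051, adjusted p = 0.313).

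SNAI1 had 18 and 10 reads in shCHD4 at 1% O2, 9 and 7 in shCHD4 at 20% O2, 23 and 26 in shSC at 1% O2, and 15 and 10 in shSC at 20% O2. The shSC libraries at 1% O2 were the highest. With no filter on low values, limma gave a log2 difference between labels at 1% O2 of -0.46 (adjusted p = 0.0366), but edgeR on the recovered reads did not pass it (adjusted p = 0.0553). For O2 under shSC, limma gave 0.45 (adjusted p = 0.0908) and edgeR 0.79 (adjusted p = 0.123). A processed pseudogene, SNAI1P1, lies on chromosome 2, and reads shared with such a copy could be placed on either. The same limit holds for ZEB2, which has a transcribed processed pseudogene, ZEB2P1, on chromosome 4.

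Both ZEB genes were lower under the shCHD4 label. ZEB1 had 122.4 and 123.0 in shCHD4 at 1% O2, 112.5 and 123.1 in shCHD4 at 20% O2, 163.2 and 157.3 in shSC at 1% O2, and 142.6 and 157.0 in shSC at 20% O2. ZEB2 had 22.2 and 23.4 in shCHD4 at 1% O2, 19.2 and 20.7 in shCHD4 at 20% O2, 38.3 and 40.8 in shSC at 1% O2, and 39.3 and 38.2 in shSC at 20% O2. For both genes every shCHD4 library was below every shSC library. ZEB1 was 1.3-fold lower at 1% O2 (log2 difference -0.38, SE 0.054, adjusted p = 3.38e-06) and 1.27-fold lower at 20% O2 (-0.35, SE 0.054, adjusted p = 1.24e-05). ZEB2 was 1.72-fold lower at 1% O2 (-0.78, SE 0.067, adjusted p = 4.7e-09) and 1.92-fold lower at 20% O2 (-0.94, SE 0.067, adjusted p = 3.38e-10). With O2, ZEB1 did not pass under either label, with log2 differences of 0.061 under shCHD4 (adjusted p = 0.442) and 0.098 under shSC (adjusted p = 0.168). It passed under shSC without shSC 20% O2 replicate 2 (0.17, adjusted p = 0.0307). ZEB2 rose under shCHD4 by 0.19 (adjusted p = 0.0464), while under shSC it differed by 0.029 (adjusted p = 0.771), and the interaction did not pass (0.16, adjusted p = 0.383). The rise of ZEB2 lies at the threshold: it did not pass with any of the 4 shCHD4 libraries left out (adjusted p = 0.0979 and 0.263 without 1% O2 replicates 1 and 2, and 0.304 and 0.0516 without 20% O2 replicates 1 and 2).

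ZEB1 and VIM lie on chromosome 10 and ZEB1-AS1 is an antisense transcript beside ZEB1. ZEB1-AS1 averaged 8.4 in shCHD4 and 14 in shSC at 1% O2 (log2 difference -0.70, adjusted p = 9.14e-06), and 7.39 in shCHD4 and 13.1 in shSC at 20% O2 (-0.77, adjusted p = 2.9e-06). ZEB2-AS1 had 0 reads in each library and VIM-AS1 was not analysed here. No source says whether reads were counted by strand, so reads of ZEB1 and ZEB1-AS1 where they overlap cannot be told apart.

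AXL was abundant and nearly level across the groups. It had 1504 and 1466 in shCHD4 at 1% O2, 1439 and 1454 in shCHD4 at 20% O2, 1501 and 1468 in shSC at 1% O2, and 1318 and 1293 in shSC at 20% O2. The shSC libraries at 20% O2 lay below the other 6. AXL was 1.14-fold higher at 1% than at 20% O2 under shSC (log2 difference 0.19, SE 0.04, adjusted p = 0.0017), and differed by 0.038 under shCHD4 (95% interval -0.047 to 0.12, adjusted p = 0.534). The interaction was -0.15 (adjusted p = 0.165). Between labels, shCHD4 was 1.11-fold higher at 20% O2 (adjusted p = 0.00289), and at 1% O2 the difference was 0.00036 (95% interval -0.085 to 0.085, adjusted p = 0.994). With quantile normalization the O2 difference under shSC was -0.024 (adjusted p = 0.646), so its direction rests on the scaling. The same method made AXL higher under shCHD4 at 1% O2 (0.24, adjusted p = 1.93e-05), so that comparison rests on the scaling too.

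AXL is bound by secreted ligands and has the sister receptors TYRO3 and MERTK. This system had 8 tested genes, AXL included. Of these, 2 were higher and 4 lower under shCHD4 at 1% O2, against 38.2% and 39.2% of all tested genes. At 20% O2, 3 were higher and 4 lower, against 37% and 38.6%. GAS6, the ligand of AXL, had log2 differences of 0.89 at 1% and 0.73 at 20% O2, and PROS1 (protein S), a ligand of the sister receptors, 0.88 and 0.82. Centred on its neighbouring genes, GAS6 had 0.11 at 1% and -0.11 at 20% O2, so its direction at 20% O2 turns with that setting. The receptor MERTK was at -0.90 and -1.19, and ADAM17, a metalloprotease that sheds membrane proteins, at -1.01 and -0.88. Under shSC, 2 rose at 1% O2, ADAM17 (0.30) and AXL, and 2 fell, MERTK (-0.60) and TYRO3 (-0.37). Over all tested genes, 17.4% rose and 17.9% fell under shSC.

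**Figure D2:**
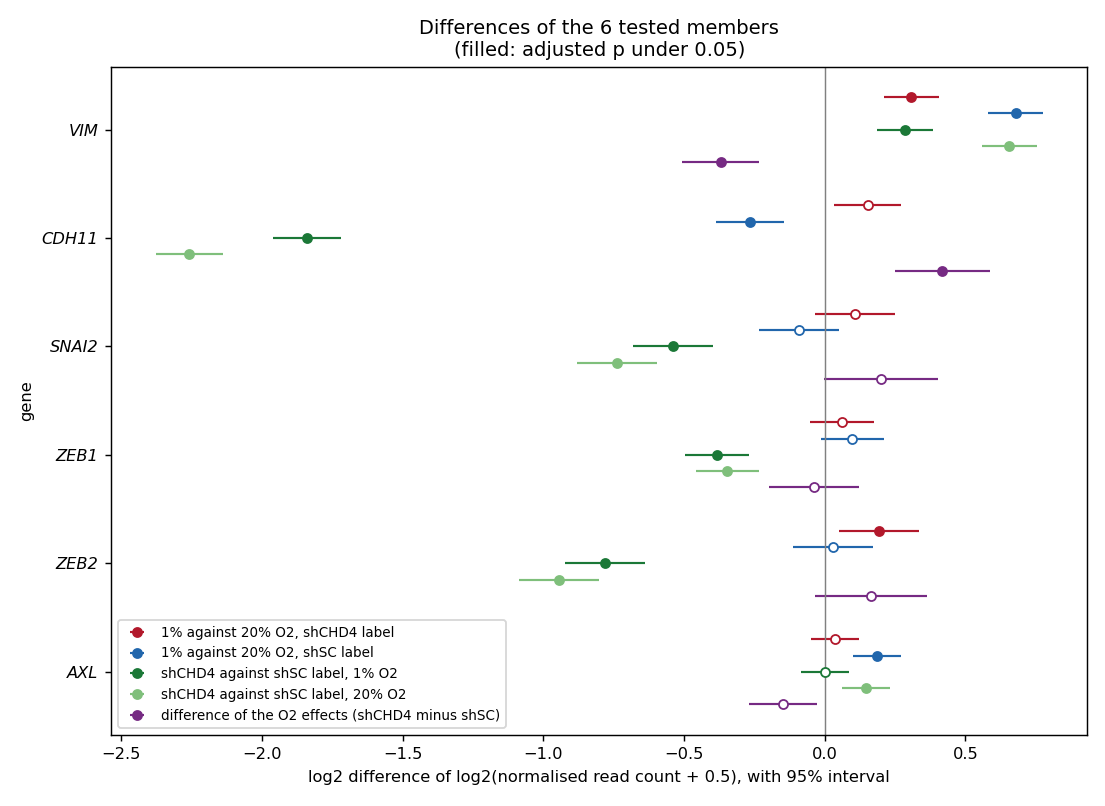
Log2 differences of the 6 tested members with 95% intervals from limma, for the 4 pairwise comparisons and the difference of the O2 effects. Filled points have adjusted p under 0.05. CDH11 stands farthest left in both label comparisons (-1.84 and -2.26), and VIM has the largest O2 differences (0.31 and 0.68).

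Over the members, the 6 tested genes were called as follows. At 1% against 20% O2 under shCHD4, 2 rose (VIM and ZEB2), none fell and 4 did not pass, against 23% of all tested genes called (1 rose, VIM, with any of the 4 shCHD4 libraries left out), and the groups did not overlap for 4 of them, against 65.7% of all tested genes. Under shSC, 2 rose (VIM and AXL), 1 fell (CDH11) and 3 did not pass, against 35.2% of all tested genes called, and 5 of the 6 had groups that did not overlap, against 65.5%. Between labels at 1% O2, 1 was higher (VIM), 4 were lower (CDH11, SNAI2, ZEB1 and ZEB2) and AXL did not pass, against 77.4% called, and groups did not overlap for 5, against 88.8%. At 20% O2, 2 were higher (VIM and AXL) and the same 4 were lower, against 75.6% called, and groups did not overlap for 6, against 86.4%. The interaction passed for 2, against 4.36%. The label comparisons thus call most genes, and a count of called members there is near the background. The median log2 difference of the 6 was 0.13 for O2 under shCHD4 and 0.064 under shSC, against -0.0037 and -0.011 over all tested genes. Between labels it was -0.46 at 1% and -0.54 at 20% O2, against -0.0067 and -0.0091. The O2 and label comparisons share libraries and are not independent of each other.

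The genes beside a member on the chromosome can differ between labels in the same direction as the member. For each tested member, the median label difference of the 40 nearest tested genes, in RefSeq order, was set beside its own. For ZEB1 that median was -0.29 at 1% and -0.26 at 20% O2, most of the gene's own difference, and after centring on these neighbours ZEB1 did not pass at 1% (-0.096, adjusted p = 0.0954) or at 20% O2 (-0.086, adjusted p = 0.136). For SNAI2 the neighbours were at -0.29 and -0.30, and the gene itself stayed lower after centring (by -0.24 with adjusted p = 0.00338 at the low O2 level and by -0.44 with adjusted p = 1.23e-05 at 20% O2). AXL had neighbours at 0.16 and 0.18, and after centring it was lower at 1% O2 (-0.16, adjusted p = 0.00675) and did not pass at 20% O2 (-0.035, adjusted p = 0.545). CDH11 went against its neighbours, which were at 0.45 at both O2 levels, and ZEB2 and VIM had neighbours at 0.072 and -0.1 at 1% O2 and at -0.044 and -0.12 at 20% O2. A change of copy number in a region between the labelled cells was not tested.

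**Figure D3:**
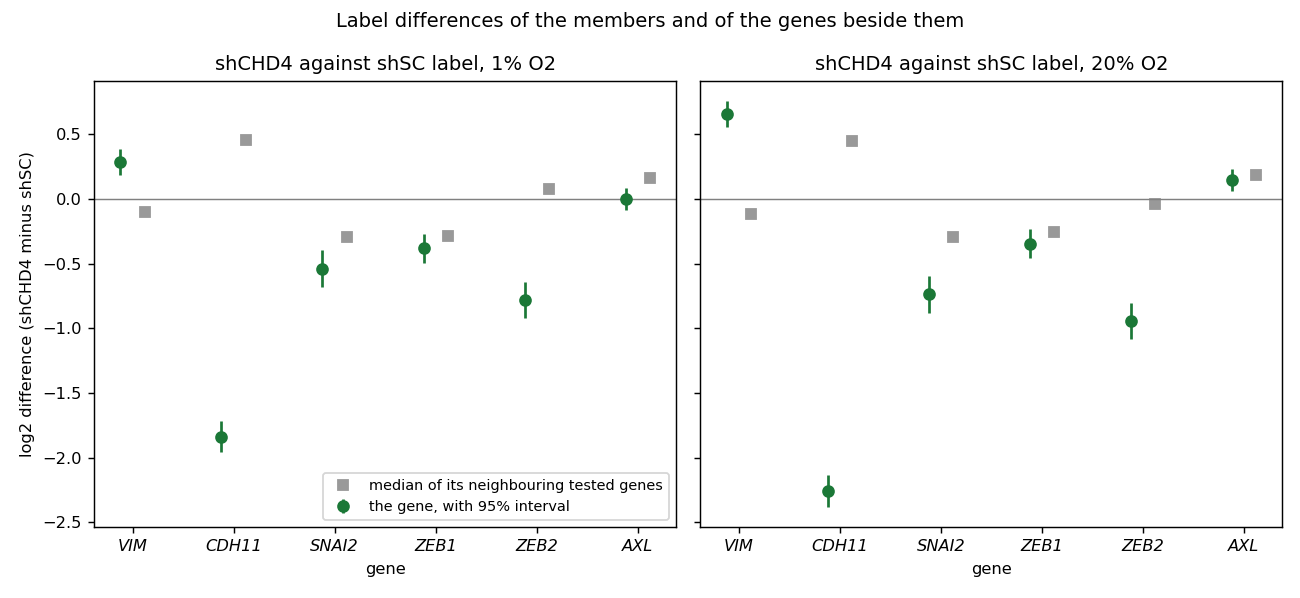
Log2 difference between labels (shCHD4 minus shSC) for the 6 tested members with 95% intervals, beside the median difference of the 40 nearest tested genes, at 1% O2 (left panel) and at 20% O2 (right panel). ZEB1 lies close to its neighbours, CDH11 lies far below them, and VIM lies above them.

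The genes whose pattern over the 8 libraries was most like that of a member were picked by Pearson's r of log2 values, as a description. CDH11 was most like BCL6 (r = 0.9996) and ICOSLG (r = 0.999), both lower in all shCHD4 libraries. VIM was most like LRRC20 (r = 0.997) and SEC61G (r = 0.991). SNAI2 went with CC2D2A and ZSCAN21, ZEB1 with POLK and PUM2, and ZEB2 with GLUL and UBALD2, with r of 0.992 to 0.998. AXL was most like PLXNA2 (r = 0.976) and EEFSEC (r = 0.973). The points share libraries and the label difference that most tested genes carry.

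A wider list of 32 mesenchymal genes was set beside the members, and 21 of them were tested. With low O2, 12 rose and none fell under shCHD4, with 12.3% of all tested genes rising and 10.7% falling, and 8 rose and 1 fell under shSC, with 17.4% rising and 17.9% falling. Among the tested genes of the lists other than the cadherins, 3 epithelial genes, and 1 gene each of the mesenchymal, further EMT factor, filament and TGF-beta lists, averaged under 1 under one of the labels and so passed the filter through the other. The collagen chains COL5A1 (log2 difference 0.56 under shCHD4, 0.81 under shSC) and COL6A3 (0.75 and 0.94) rose under both labels. TGFBI, a matrix protein, rose by 0.51 under shCHD4 and 0.83 under shSC. NT5E, an adenosine-making ectonucleotidase, rose by 0.40 under shCHD4, and under shSC it averaged 879.0 at 1% and 677.8 at 20% O2. The list's median was 0.16 under shCHD4 and 0.14 under shSC. Between labels, 8 were higher and 12 lower at 1% O2, and 7 were higher and 10 lower at 20% O2, with 38.2% and 37% of all tested genes higher and 39.2% and 38.6% lower. The matrix glycoprotein TNC (tenascin-C) had log2 differences of -3.11 at 1% and -3.22 at 20% O2, and FN1 (fibronectin) -1.61 and -1.73. S100A4, a calcium-binding protein of motile cells, was higher, by 1.55 and 1.44.

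Epithelial genes that EMT factors are known to repress were divided between labels too. Of 36, 21 were tested. At 1% against 20% O2, 7 rose and 1 fell under shCHD4, against 12.3% and 10.7% of all tested genes. Under shSC, 8 rose and 4 fell, against 17.4% and 17.9%. Keratin gene KRT19 (0.69 under shCHD4, 1.1 under shSC), the desmosomal gene PKP3 (0.63 and 0.79) and the tight-junction gene CLDN7 (0.88 and 0.97) rose under both labels. Between labels, 6 were higher and 12 lower at 1% O2, against 38.2% and 39.2% of all tested genes. At 20% O2, 5 were higher and 12 lower, against 37% and 38.6%. The 21 include 3 genes that averaged under 1 under 1 of the labels and passed the filter through the other. EHF, an epithelial ETS factor, had log2 differences of -4.97 at 1% and -5.41 at 20% O2, CLDN1 -3.30 and -2.96, and KRT7 -1.88 and -2.20. The desmoplakin gene DSP was higher, by 1.42 at 20% O2. The list's median was -0.71 at 1% and -0.58 at 20% O2.

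Further factors of EMT were also divided. Of 15 tested, 5 were higher and 9 lower under shCHD4 at either O2 level. Over all tested genes, 38.2% were higher and 39.2% lower at 1% O2, and 37% and 38.6% at 20% O2. The 15 include 1 gene that averaged under 1 under 1 of the labels and passed the filter through the other. WWTR1 (TAZ) and TEAD1, partners in the Hippo pathway, had log2 differences of -0.71 and -0.68 at 1% O2 and -0.95 and -0.87 at 20% O2. SOX9 had -0.58 at 20% O2, and FOXQ1 and SOX4 were higher at 1% O2, by 1.06 and 0.82. At 20% O2, the label differences of FOXQ1 and SOX4 changed sign after centring on neighbouring genes. They were then -0.022 and -0.0051 and did not pass (limma, adjusted p = 0.78 and 0.946), so their direction at 20% O2 turns with that setting. Of 6 tested bHLH partners and inhibitors of TWIST proteins, 3 were higher and 1 lower at 1% O2, against 38.2% and 39.2%. At 20% O2, 3 were higher and 2 lower, against 37% and 38.6%. ID1 and ID3, which block bHLH dimers, had 2.88 and 2.67 at 1% O2 and 2.91 and 2.88 at 20% O2. The E proteins TCF3 (0.31 and 0.37) and TCF12 (-0.39 and -0.40) went opposite ways.

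Genes for the proteins that SNAI and ZEB factors recruit, or that set their stability, were read as RNA only. Of 34 tested corepressor genes, 16 were higher and 13 lower under shCHD4 at 1% O2, against 38.2% and 39.2% of all tested genes. At 20% O2, 16 were higher and 11 lower, against 37% and 38.6%. EHMT2, a histone methyltransferase, had 2.07 and 1.64, RBBP4, a histone chaperone, 0.94 and 0.74, and the remodelling ATPase SMARCA4 0.74 and 0.64. At 1% against 20% O2, 2 rose and 7 fell under shCHD4, against 12.3% and 10.7% of all tested genes, and 4 rose and 10 fell under shSC, against 17.4% and 17.9%. Of the 9 called under shCHD4, the count was 5 without 1% O2 replicate 1, 4 without 1% O2 replicate 2 and 5 without 20% O2 replicate 1. DNMT1 had -0.18 under shCHD4 and -0.34 under shSC, and KDM1A -0.28 under shSC. Of 23 tested genes of SNAI and TWIST protein turnover, 4 were higher and 11 lower under shCHD4 at 1% O2, against 38.2% and 39.2%. At 20% O2, 5 were higher and 11 lower, against 37% and 38.6%. Among the lower genes were the deubiquitinase gene USP47 (-0.93 and -0.85) and the ubiquitin ligase gene FBXO11 (-0.81 and -0.78). LOXL2, a lysyl oxidase described as stabilising SNAI1 protein, rose at 1% O2 under both labels, by 0.59 under shCHD4 and 0.71 under shSC.

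Genes of the vimentin network and of transforming growth factor beta (TGF-beta), an inducer of EMT, completed the lists. There were 12 tested filament and partner genes, and 1 of them passed the filter through 1 label. Of the 12, 5 were higher and 5 lower under shCHD4 at 1% O2, against 38.2% and 39.2% over all genes. At 20% O2, 5 were higher and 4 lower, against 37% and 38.6%. The lamin genes LMNB1 (1.85 and 1.59), LMNA and PLEC, which links vimentin filaments (0.85 and 0.98), were higher, and LMNA averaged 678.1 in shCHD4 and 321.7 in shSC at 1% O2. Of 12 TGF-beta genes, all tested, 4 were higher and 7 lower under shCHD4 at 1% O2, against 38.2% and 39.2% of all tested genes. At 20% O2, 4 were higher and 8 lower, against 37% and 38.6%. The 12 include 1 gene that passed the filter through 1 label. The receptor TGFBR2 had -1.75 and -1.79, SMAD2 -1.18 and -1.38, the SMAD corepressor SKIL -1.56 and -1.76, and the co-receptor TGFBR3 2.21 and 2.24. With O2, 3 rose and 1 fell under shCHD4, against 12.3% and 10.7% of all tested genes, and 4 rose and 4 fell under shSC, against 17.4% and 17.9%. The 4 calls under shCHD4 were 1 without 1% O2 replicate 1 or 2 or without 20% O2 replicate 1 of that label. TGFBR2 rose under both labels, by 0.34 under shCHD4 and 0.29 under shSC. TGFB1 had 0.021 under shCHD4 and 0.29 under shSC, and TGFB2 -0.028 under shCHD4 and -0.40 under shSC, and both interactions passed (adjusted p = 0.0399 for TGFB1 and 0.0126 for TGFB2). Both calls were lost without shCHD4 1% O2 replicate 2, and also without shSC 1% O2 replicate 2.

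**Figure D4:**
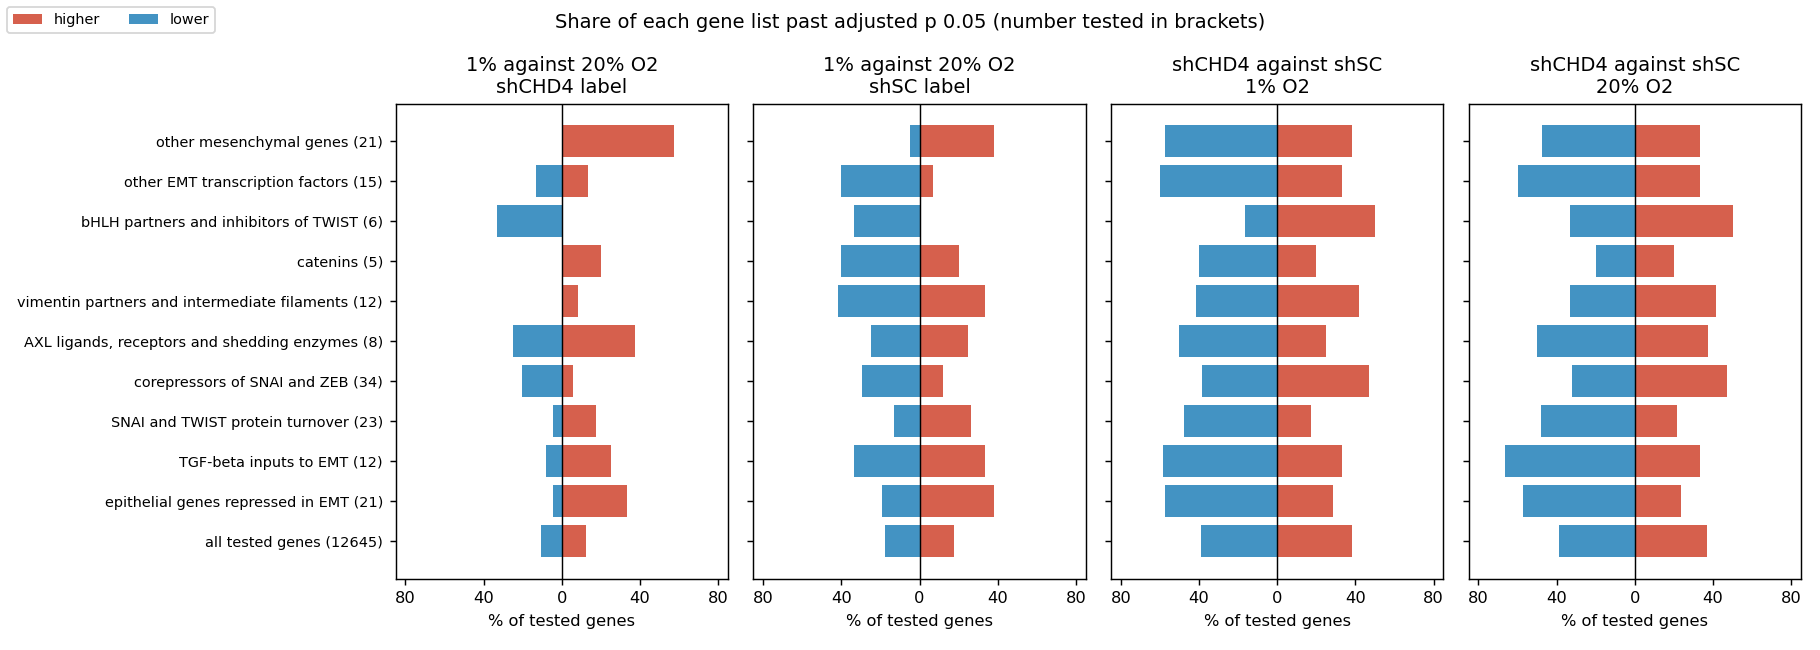
Share of the tested genes of each list with more than 1 tested gene, the cadherins left out, that passed adjusted p 0.05 as higher (right of 0) or lower (left of 0) in the 4 pairwise comparisons, with all 12645 tested genes in the lowest row. Among other mesenchymal genes, 12 of 21 rose at 1% O2 under shCHD4 and 8 of 21 under shSC. In the label comparisons the bars of all tested genes are long on both sides. The label bars of the epithelial, mesenchymal, further EMT factor, filament and TGF-beta lists include genes that passed the filter through 1 label.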

How the data were processed

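The 8 messenger RNA libraries were made from MDA-MB-231 cells, 2 for each of 4 groups set by hairpin label and O2 level. Tools named in the submitters' processing notes are TopHat, featureCounts and edgeR, with bcl2fastq 2.17, FastQC 0.11.2 and Picard 1.127, on the build hg19. No source used here gives the annotation or the strand setting. The deposited table is named FPKM, but the authors' values are a signal proportional to reads: dividing a library by its smallest step gave whole reads for 100% of values, within 0.01 reads. The planned limma test for normalized values was kept.

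The 12645 genes averaging 1 or more were tested with limma 3.58.1 under R 4.3.3, after the transform log2(value + 0.5), as 4 group means in a single fit with a variance trend, two-sided, with Benjamini-Hochberg adjustment at 0.05 and 95% intervals. Fold changes are on that scale and understate changes of low genes. With 2 libraries on each side, the smallest p of an exact permutation test is 0.333. The count test on recovered reads (edgeR) called 2959 genes for O2 under shCHD4, 4490 under shSC, 9861 between labels at 1% and 9570 at 20% O2, and 563 for the interaction. Alternatives were edgeR 4.0.16 and DESeq2 1.42.0 on recovered reads, other scalings, filters and pseudocounts, a replicate block, centring on neighbours, and leaving out each library. The tests were run on simulated data with the same dispersion for every gene and group. That check therefore does not cover the unequal spread of these libraries. Chi-square per degree of freedom between replicates was 2.13 to 4.48, above sampling noise.

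The members, and the 12 other lists, were chosen with earlier results of these data known, and the lists were described by counts and medians. Named were all members, CHD4, NDRG1 and CA9, up to 4 genes per list and comparison with the smallest p, the most abundant gene of a list where most did not pass, and, for each member whose own mean was at least 10, the 2 tested genes most like it. For ZEB2-AS1 and the marker genes, values were given after they were seen. RefSeq symbols matched 17289 of the 19583 row names, and synonyms 1522. A planned comparison of protein sequences was not run, and some genes that the naming rule picked are not reported here.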

Additional observations from a re-analysis of the deposited data

Results flagged for a closer look

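For 2 members, VIM and CDH11, the difference between 1% and 20% O2 differed between the labels by the interaction test. The interaction (shCHD4 minus shSC, log2 scale) was -0.37 for VIM, which rose under both labels, by 0.31 under shCHD4 and 0.68 under shSC. It was 0.42 for CDH11, at 0.15 under shCHD4 and -0.27 under shSC.

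Other named genes with an O2 effect that differed between labels were higher under shCHD4 than under shSC in TPM2 (0.64), JUP (0.61), SYNM (0.51), EHF (0.44), SOX4 (0.44), EHMT2 (0.42), TGFB2 (0.38), KRT7 (0.33) and AJUBA (0.30). The interaction was negative for CA9 (-2.16), NDRG1 (-0.67), KRT19 (-0.41), TGFBI (-0.33), TGFB1 (-0.27) and COL5A1 (-0.25). Under shCHD4 and shSC, the O2 differences were 0.29 and -0.32 for JUP, 0.40 and -0.24 for TPM2, and -0.029 and -0.47 for SOX4. CA9 rested on 5 reads under shCHD4 and 18 under shSC at 20% O2, with means of 0.0921 and 0.345, below the pseudocount of 0.5. The pseudocount understates its rise at 1% O2 under both labels, and more so under shCHD4. It thereby makes the CA9 interaction more negative, so the size of that value rests on the pseudocount.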

How the results depend on the processing

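Of 600 member values under the alternatives, 573 kept their direction where called and their side of the threshold, 18 lost the call, 6 gained it and 3 changed sign. A sign change is counted here only where the main or the alternative value passed. Changes of sign with no call are among the 573. The 3 were AXL for O2 under shSC with quantile normalization (-0.024) and AXL between labels after centring on neighbours (-0.16 at 1% and -0.035 at 20% O2). Other named genes changed sign between labels after centring: at 1% O2 ADAM10 (0.12), FBXO22 (0.19) and KRT18 (0.28), and at 20% O2 NDRG1 (0.40), FBXL5 (0.13), FOXQ1 (-0.022), GAS6 (-0.11), MSN (-0.39) and SOX4 (-0.0051). With quantile normalization CD44 (-0.045) and FLNA (-0.22) changed sign for O2 under shSC, as did CTNNA1 (0.14) between labels at 1% O2. The cause was not tested.

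The count of members called for O2 under shCHD4 was 2, and 1 with DESeq2, with quantile normalization, with no filter (limma, or edgeR on recovered reads), without a variance trend and with the 2 groups alone, and 1 to 3 with a library left out. For the interaction it was 2, and 0 with no filter and without a variance trend. Over all genes, the O2 count under shCHD4 was 2903, and 1920 with no filter, 1815 without a variance trend, and 1326 to 3468 with a library left out. The interaction count was 551, and 155 with no filter, 155 without a variance trend, 883 with edgeR and no filter, and 245 to 994 with a library left out. With the replicate block the counts were 2795 for O2 under shCHD4 and 536 for the interaction, and no member's call changed. Deviations of same-numbered libraries correlated at -0.121 to 0.124, so the numbers do not pair the samples. Crossing the numbers of the shCHD4 groups, added after seeing the data, gave 5034 calls, against 3619 from these 2 groups with no block. With 2 libraries a group, and 4 to 26 reads per library for CDH2 and SNAI1, small differences of those genes were not detectable.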
